A study of Drosophila melanogaster with 4 samples.

Results

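The peaks described here are the regions of the X chromosome that carried trimethylation of lysine 4 on histone H3 (H3K4me3) in S2-DRSC cells. They are all 1171 peaks that the authors' list places on the sequence named X, out of 11572 peaks on 14 sequences. The arms 2L (1353 peaks), 3L (1370) and 3R (1693) served as the comparison. These fruit fly (Drosophila melanogaster) cells are a male line derived from late embryos, and they are 1 line, so nothing here says how other male cells behave. Chromatin was fixed with 1.8% formaldehyde for 15 min. There were 2 libraries immunoprecipitated with an H3K4me3 antibody and 2 libraries of input DNA, with no other treatment or genotype in the labels. The list also places 7 peaks on YHet, sequence of the Y chromosome, but the sex of the cells was not tested from them.

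H3K4me3 sits on the nucleosomes around the starts of transcribed genes. In flies most of it is laid down by the Set1 complex, with smaller parts for Trithorax and Trithorax-related. The mark is narrow at most genes and broad at some highly transcribed or developmentally controlled ones. The single X of male flies is dosage compensated: the MSL complex, which contains the roX RNAs, enters at high-affinity sites, spreads to the bodies of active genes and acetylates histone H4 there, and transcription of the X rises. S2 lines are also known to be aneuploid, and the copy number of X was not measured here.

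Each peak comes with a start, an end and 1 score, all given by the authors. The kind of score is not stated, so ratios of scores are ratios on the authors' scale. No value per library was analysed here, read depth is unknown, and therefore no spread between replicates and no test can be given for any difference below. Peaks are not replicates. Exact 95% intervals cover counting error only and take peaks as independent, which makes them too narrow for peaks that resemble their neighbours. A weaker peak can mean fewer marked cells, less mark in each cell or fewer copies of the sequence per cell. These cannot be told apart in bulk chromatin without a measured copy number. Positions are in FlyBase release 5, counted from 1, and no gene is tied to a peak because no annotation of that release was used.

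Marked regions on X were mostly narrow, with a small set of very broad ones. Widths had a median of 708 bp, a lower quartile of 465.5 bp and an upper one of 1066.5 bp, and the 5th and 95th percentiles were 238 and 2432 bp. On 2L the median was 985 bp, on 3L 1008.5 bp and on 3R 1168 bp. The fullest class was 500 to 1000 bp, which held 505 X peaks, 43.1% of them (95% Clopper-Pearson interval 40.3 to 46.0). That class held 31.2% of the peaks on 2L, 31.0% on 3L and 21.2% on 3R. In the next class, 1000 to 1500 bp, the order was the other way, with 15.3% of the peaks on X (13.3 to 17.5) and 27.5% to 33.9% on the 3 autosomal arms. Peaks of up to 500 bp made up 28.5% of X (26.0 to 31.2) and 18.0% of the 3 arms together (16.9 to 19.1).

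Broad peaks were fewer on X, but the broadest were as long as anywhere. Peaks over 2000 bp, called wide here, numbered 95 on X, or 4.24 per Mb (95% exact Poisson interval 3.43 to 5.18), against 7.44 per Mb on 2L, 6.35 on 3L and 9.04 on 3R. Peaks over 4000 bp numbered 29, or 1.29 per Mb (0.866 to 1.86), against 1.72 per Mb on 3L (1.24 to 2.33) and 1.87 on 3R (1.39 to 2.45), intervals that overlap that of X. On 2L it was 2.91 per Mb (2.26 to 3.70), above the X interval. At the median X stood at 0.662 times the 3 arms pooled, at the 90th percentile at 0.727 times and at the 95th at 0.736 times. Only at the 99th percentile did the arms come close, with 5507.7 bp on X and 5750.4 bp on the 3 arms pooled. Among peaks at or above the median score of the whole list the order of the medians turned, with X at 1.06 times the others. In all, 5.02% of the span of X between its first and last peak lay in peaks, against 7.42% on 2L, 6.84% on 3L and 8.23% on 3R. The widest 10% of the X peaks held 33.2% of all bases in X peaks.

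**Figure D1:**
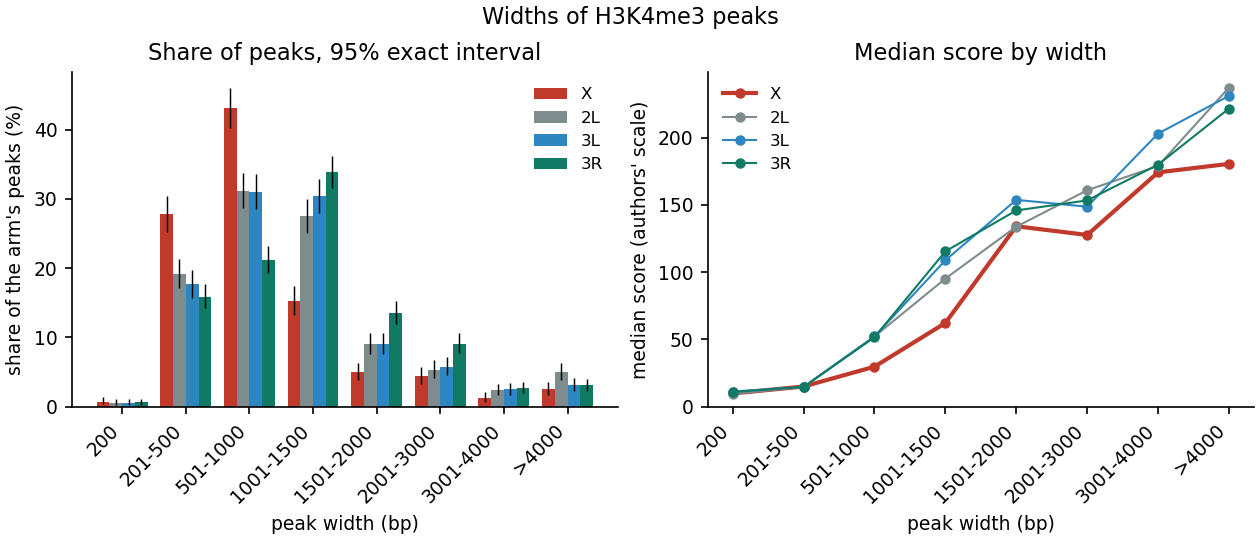
Left, share of each arm's peaks by width class in bp, as bars with 95% exact binomial intervals. Right, median score of each class on the authors' scale. The red X bar is the tallest at 500 to 1000 bp (43.1%) and the shortest at 1000 to 1500 bp (15.3%), and the X line lies below the other arms in both of these classes.

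The 2 broadest regions of X stood apart from the rest. The widest spanned 9878 bp at X:21405506–21415383 with a score of 553, and the next spanned 9065 bp at X:4005543–4014607 with a score of 429. The third was 6350 bp wide, at X:3647493–3653842, and its score was 144. Places 4 to 10 ran from 6231 bp down to 5716 bp. The peak at X:6339383–6345098, 10th by width, lay alone, with 72.5 kb without a peak on its left and 73.6 kb on its right. By contrast the peak at X:1767855–1773602, 5748 bp wide, had neighbours at 222 and 935 bp. Broad regions of X were thus found both in isolation and in crowded stretches.

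The scores of X peaks fell into 2 humps. In classes that each reach further by the square root of 2, the fullest class of X ran from 22.6 to 32 and held 240 peaks, and the next, 32 to 45.3, held 200. The count then dropped to 56 at 45.3 to 64 and 57 at 64 to 90.5. It rose again to 75 at 90.5 to 128 and to 96 at 128 to 181, before it fell to 30 at 181 to 256. The other arms also had a low hump and a dip, but both were shallower and the dip lay at lower scores. On 3R the classes from 11.3 upward held 101, 110, 80, 86, 125, 192, 313 and 366 peaks. On 3L the count was 86 at 16 to 22.6 and 77 at 22.6 to 32, then rose through 158 and 193 to 196, and was no lower at 128 to 181. On 2L the classes from 11.3 upward held 91, 83, 101, 101, 168 and 227 peaks, with the top at 64 to 90.5, and then 184 and 177. The scores at which X had its gap were therefore among the well filled ones on these arms.

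**Figure D2:**
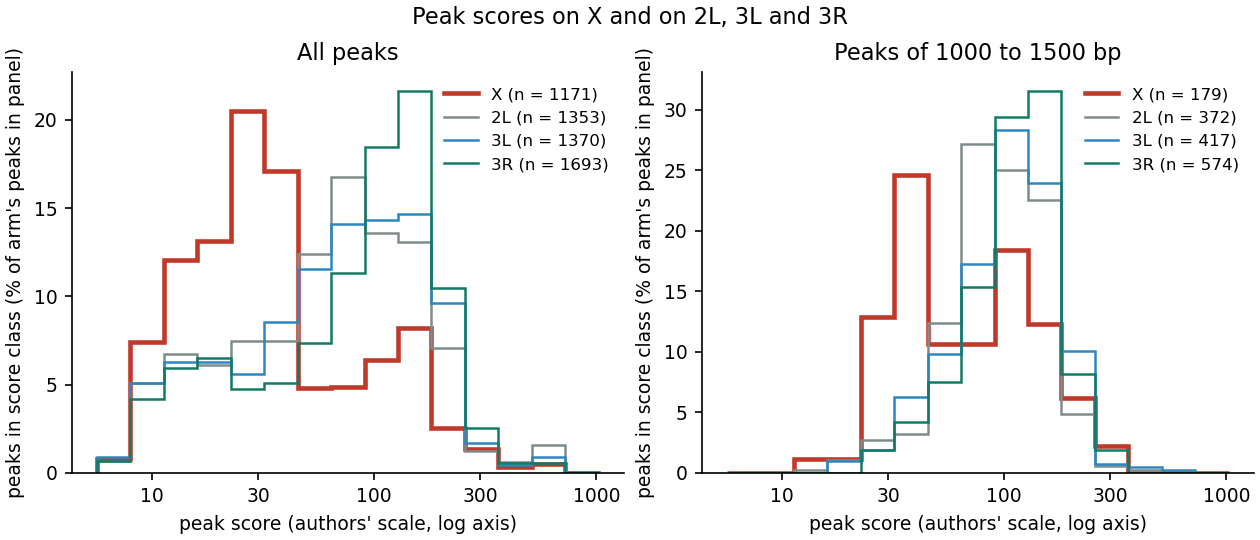
Share of peaks in each score class (steps of the square root of 2, log axis, authors' scale) for X in red and for 2L, 3L and 3R, for all peaks (left) and for peaks of 1000 to 1500 bp (right). X shows a high hump at 22.6 to 45.3, a trough at 45.3 to 90.5 and a lower hump at 128 to 181 on the left, and a trough between 2 humps on the right as well.

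Peaks of the lower hump were mostly, but not only, those of up to 1000 bp. Of 240 X peaks scoring 22.6 to 32, 27 were over 1000 bp wide, and of 200 scoring 32 to 45.3, 52 were. Of 96 scoring 128 to 181, 86 were. X peaks of 500 to 1000 bp were fullest at 22.6 to 32 (169 of 505). Those of 1500 to 2000 bp were fullest at 128 to 181 (24 of 58), and the class between them held both humps. Among X peaks of 1000 to 1500 bp, 44 of 179 had scores of 32 to 45.3, 19 had scores of 45.3 to 64, another 19 had scores of 64 to 90.5, and 33 had scores of 90.5 to 128. In that width class 43.0% of the X peaks scored from 20 to 50 and 31.8% from 100 to 200, with 18.4% in between. On the 3 autosomal arms the same shares were 9.17%, 50.8% and 33.7%. Among X peaks of 500 to 1000 bp, 69.7% scored from 20 to 50, against 36.8% on the 3 arms. At the narrow end the arms did not separate: between 200 and 500 bp scores had a median of 14.9 on X, 14.57 on 2L, 14.58 on 3L and 14.6 on 3R. From 1500 to 2000 bp the medians were close again, at 134 on X, 134 on 2L, 154 on 3L and 146 on 3R. The lower quartile of that class was still lower on X, at 73.5 over 58 peaks, against 101, 109 and 110. Over 2000 bp the medians parted, with 156 on X against 198 on 2L, 184 on 3L and 171 on 3R. Over 4000 bp the median was 181 on X against 237, 231 and 222.

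A score of at least 100 marked a strong peak, and X had 212 of these, 18.1% of its peaks (15.9 to 20.4). Of the strong peaks 75 were also wide (35.4%), and of the 95 wide peaks 75 were strong (78.9%). The 15 X peaks of 3000 to 4000 bp and the 29 above 4000 bp were all strong. From a score of 64, a limit that lies in the trough of the X scores, X peaks were at least as broad as those elsewhere. Their median width was 1429 bp for 284 peaks, against 1288 bp on 2L, 1291.5 bp on 3L and 1396 bp on 3R. Of them 30.3% were wide, against 23.0%, 19.5% and 22.1% on these arms. Below 64 the medians were 596 bp on X (887 peaks), 597.5 bp on 2L, 619 bp on 3L and 533 bp on 3R. Split at this limit of X, the arms differed mainly in how many of their peaks lay on each side. Of X peaks 24.3% reached 64, and of those on the 3 arms 54.0% to 65.5% did.

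The highest scores of X belonged to a few peaks of about 5 kb. The peak at X:4178529–4183705 scored 705 over 5177 bp, X:5821170–5826368 scored 665 over 5199 bp, X:14712840–14717994 scored 653 over 5155 bp and X:13924812–13929386 scored 652 over 4575 bp. The fifth, at X:2136147–2138185, reached 597 over only 2039 bp. Of the 10 highest scores, 4 were also among the 10 widest peaks. Scores of at least 300 numbered 18 on X, 0.803 per Mb (0.476 to 1.27), against 1.57 on 2L, 1.11 on 3L and 1.26 on 3R. The top 5 did not lie in 1 neighbourhood.

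Some X peaks had a width and a score that did not go together. The peak at X:18531896–18534326 was 2431 bp wide but scored 22.9, and X:5566853–5569191 was 2339 bp wide and scored 33.4. At the other end X:17451043–17451498 was 456 bp wide and scored 150, the only strong peak of up to 500 bp among 334 on X. It followed 135 kb without a peak. Across all X peaks width and score had a Spearman rho of 0.818, given as a description of 1171 peaks that share their libraries.

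Strong peaks of X often followed each other, but how X compared with the other arms depended on the limit. After a strong peak the next peak along X was strong in 99 of 211 cases (46.9%, 40.03 to 53.9), and after any other peak it was strong in 112 of 959 (11.7%, 9.71 to 13.9), a ratio of 4.02. The same ratio was 1.92 on 2L, 2.52 on 3L and 1.49 on 3R, where strong peaks were more common to begin with. Of the peaks above each arm's own upper quartile, 35.2% on X stood in runs of at least 5, against 15.5% on 2L, 20.1% on 3L and 13.3% on 3R. Of the peaks below the lower quartile, 2.41% on X stood in such runs, against 14.3% on 2L, 14.3% on 3L and 8.77% on 3R. Other limits gave another picture. Above each arm's median score the share in such runs was 42.6% on X, 34.0% on 2L, 44.1% on 3L and 35.3% on 3R. At a score of at least 100 it was 17.9% on X, 17.0% on 2L, 38.5% on 3L and 36.5% on 3R. Under a score of 20 it was 6.52% on X, 2.74% on 2L, 6.76% on 3L and 6.10% on 3R. Peaks under 20 were more common on X to begin with, at 27.5% against 16.2%, 16.2% and 14.5% on these arms. Neither strong nor weak peaks of X thus stood in longer runs at every limit.

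The longest run above the upper quartile of X, which is a score of 59.3, held 8 peaks at X:9692604–9995103. Their scores in order were 145, 170, 82.1, 186, 228, 175, 194 and 169. On 2L, 3L and 3R the longest runs above the arm's own upper quartile held 15, 9 and 10 peaks. At a score of at least 100 the longest run held 7 peaks on X and 15, 13 and 20 on these arms, where strong peaks were more common. A run of 7 at X:2073781–2144081 had scores of 136, 178, 111, 205, 121, 597 and 170 and a median width of 2039 bp, so each of its peaks was strong. Another run of 7 lay at X:1765933–1796019, within 30.1 kb. The only run of at least 5 below the lower quartile, a score of 18.7, held 7 peaks at X:6636260–6698776, with scores of 7.41 to 16.9 and a median width of 327 bp. Its next longest runs held 4 peaks. On 2L, 3L and 3R the longest runs below the arm's own lower quartile, which lies at higher scores of 30.3, 33.0 and 39.95, held 11, 13 and 16 peaks. Under 1 common score of 20 the order turned: the longest run held 9 peaks on X, at X:14310804–14613571, and 6, 5 and 5 on these arms. Peaks under 20 were also more common on X, at 27.5% of its peaks against 14.5% to 16.2%.

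**Figure D3:**
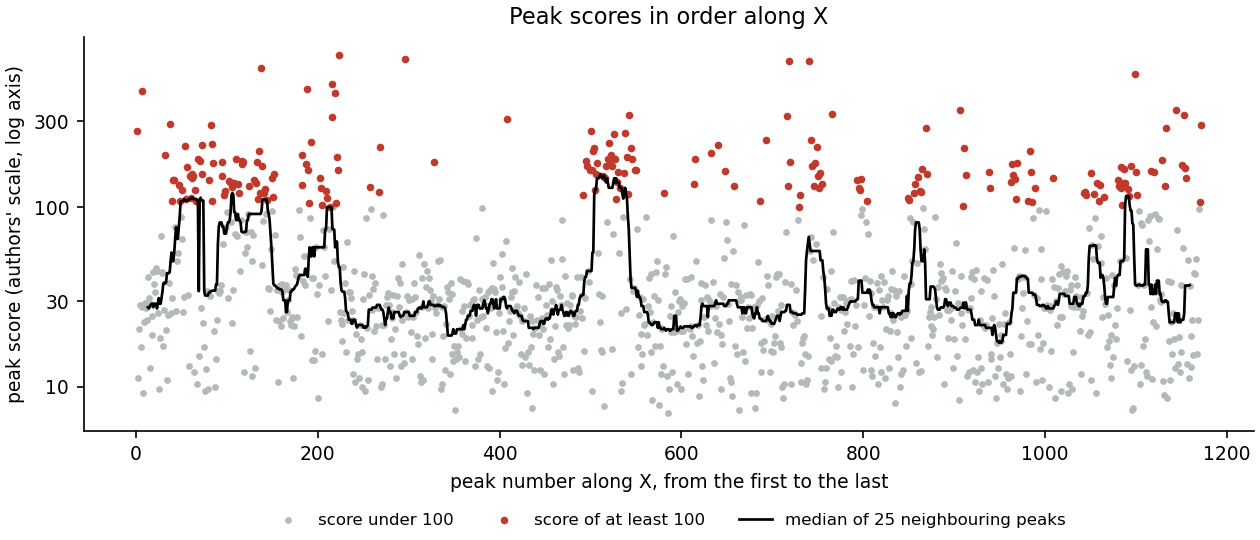
Score of each of the 1171 X peaks (authors' scale, log axis) by its number in order along the chromosome. Strong peaks are red, and the black line is the median of 25 neighbouring peaks. The line rises in a few steep blocks, the highest with a median of 153, and stays low over long stretches between them.

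Windows of 25 neighbouring peaks show where these blocks lie. The highest window median was 153, at X:9473115–9995103, with 16 strong peaks of 25. The second was 128, at X:10106952–10426157, with 15 strong peaks, and the third was 120, at X:1765933–1977447, with 14 strong and 9 wide peaks. Density did not follow the score, since these 3 windows held 47.9, 78.3 and 118 peaks per Mb. The lowest window median was 17.6, at X:17783735–18536856, followed by 19.3 at X:6425452–6698776 and 20.6 at X:10986667–11347565. The second of these was crowded, with 91.5 peaks per Mb and no strong or wide peak. Such contrasts were not particular to X: its highest window median was 8.67 times its lowest, against 13.4, 13.0 and 14.3 times on 2L, 3L and 3R.

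Stretches of at least 10 peaks in which the 25 peaks centred on each peak had a median of at least 64 numbered 5. The level was chosen after the values were seen, and these stretches covered 2.13 Mb, or 9.49% of the span of X. They held 144 peaks, of which 72 were strong (50%). Elsewhere, shorter stretches at that level included, 140 of 1027 peaks were strong (13.6%). The longest lay at X:9500547–10355908 (39 peaks, median score 128) and the most crowded at X:1759000–2211305 (58 peaks, 128 per Mb, median score 88.1). Inside the 5 stretches 18.1% of the peaks scored from 20 to 50, and outside 48.7% did. These shares only describe the stretches, which were themselves found from the scores, and the shortest, of 10 peaks at X:21234106–21392457, had a median of only 39.5 over its own peaks.

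The opposite was a long part of X that had peaks but hardly a strong or broad one. No strong peak lay at X:6345099–7928871, 1.58 Mb that held 79 peaks with scores of 7.41 to 98.7 and a median width of 625 bp. The longest distance without a strong peak was 969 kb on 2L, 986 kb on 3L and 979 kb on 3R, arms with more strong peaks per Mb. No wide peak lay at X:6345099–9043404, 2.70 Mb with 139 peaks, of which 1 was strong with a score of 308. The corresponding stretches were 1582 kb on 2L, 1198 kb on 3L and 1549 kb on 3R. Peaks were not scarce there, with 51.5 per Mb against 52.2 over the whole of X, but 3.47% of the stretch lay in peaks against 5.02% of X.

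Counts in the 22 full 1 Mb bins of X ran from 28 peaks, at 20 to 21 Mb, to 79, at 15 to 16 Mb, with a median of 48.5. Strong peaks were more unevenly spread. The bin at 1 to 2 Mb held 36 strong and 20 wide peaks and 119 kb in peaks, the bin at 8 to 9 Mb held 51 peaks with no strong and no wide one, and its highest score was 50.5. The bins at 1 to 2, 21 to 22, 9 to 10, 2 to 3 and 10 to 11 Mb held 106 of the 206 strong peaks in full bins (51.5%). The variance of strong counts per bin was 7.30 times their mean on X, and 10.8, 12.6 and 6.43 times on 2L, 3L and 3R. The fullest bin of X, 15 to 16 Mb, had 7 strong peaks, the median of all its bins. Across the 22 bins the number of peaks and their median score had a rho of 0.023, and the numbers of all and of strong peaks one of 0.308. On 2L, 3L and 3R the second value was 0.703, 0.659 and 0.780, over 23, 24 and 27 bins. These are descriptions with few bins. Strong peaks are also counted among all peaks, of which they are 18.1% on X and 33.0% to 50.3% on these arms. The values of X and of these arms are therefore not on equal terms.

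Neighbouring X peaks were less often separated by a short gap, and their centres differed less from the other arms than their edges did at the shortest distances. Of 1170 gaps on X 19.5% were under 500 bp (17.3 to 21.9), against 32.0% on 2L, 29.1% on 3L and 32.2% on 3R. Gaps on X had a median of 3097 bp, against 1890 to 2414 bp elsewhere. Measured from midpoint to midpoint, a comparison added after the gaps were seen, 32.3% of neighbours on X were less than 2000 bp apart (29.6 to 35.1). That share was 34.0% on 2L (31.5 to 36.6), 32.4% on 3L (30.0 to 35.0) and 31.3% on 3R (29.1 to 33.5), all with overlapping intervals. Under 1500 bp only 3R lay apart from X, with 16.5% (14.8 to 18.4) against 21.4% on X (19.1 to 23.8). On 2L that share was 22.5% (20.3 to 24.8) and on 3L 20.5% (18.3 to 22.7), both with intervals that overlap that of X. Over all neighbours X had the widest spacing, with a median midpoint distance of 4185.5 bp, against 3370.5 bp on 2L, 3830.5 bp on 3L and 3797 bp on 3R. Gaps of 500 to 600 bp were 4.19% of all on X and 2.90% on the 3 arms.

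**Figure D4:**
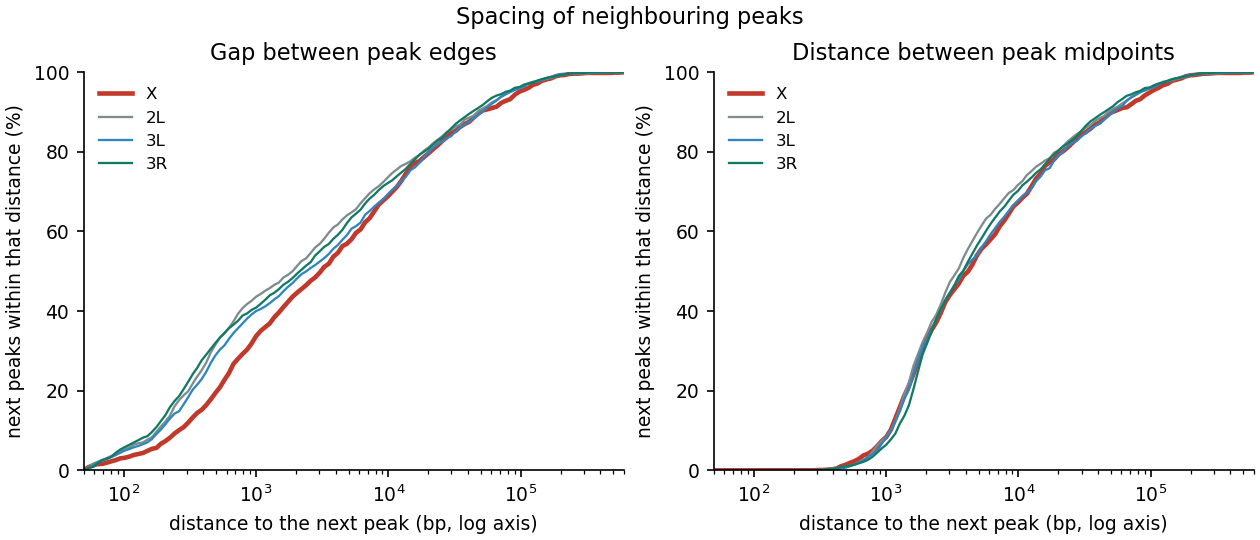
Cumulative share of neighbouring peaks within a given distance (bp, log axis), from edge to edge on the left and from midpoint to midpoint on the right, for X in red and for 2L, 3L and 3R. The X curve lies lower on the left (19.5% at 500 bp) and lies closer to the others on the right (32.3% at 2000 bp), though its median distance of 4185.5 bp is the longest of the 4.

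Joining X peaks with gaps under 500 bp left 943 regions. Of these 766 were single peaks, which are 65.4% of X peaks, 140 were pairs and 37 were groups of at least 3. Groups of at least 3 held 10.7% of X peaks (8.96 to 12.6), against 22.2% on 2L, 20.1% on 3L and 20.6% on 3R. Their number was 16.5 per 10 Mb on X and 33.2 to 34.8 on the other arms. Peaks of such groups had a median score of 33.9 and single ones of 28.8. Of the grouped peaks 22.4% were strong and 12.8% wide, against 15.3% and 6.66% of single peaks.

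The largest group of X held 8 peaks over 10046 bp at X:21565690–21575735, where 81.9% of the bases lay in peaks. Its scores in order were 27.7, 11.1, 23.1, 156, 91.7, 21.9, 58.2 and 87.4, so a single strong peak of 3548 bp stood among weaker ones. A group of 4 peaks lay just before it, at X:21558329–21565047. The group of 5 at X:15626202–15634803 was built otherwise: 4 of its peaks scored from 125 to 144 and 1 narrow peak of 236 bp scored 16.6. The group of 5 at X:6181378–6186007 had no strong peak, with scores of 10.9 to 48.5. Of the 37 groups, 18 contained a strong peak, where 18.1% of all X peaks were strong. In 9 of the 29 groups of 3 the highest score was that of the middle peak. Neither count was compared with peaks grouped at random, so neither is read as a trait of the groups.

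**Figure D5:**
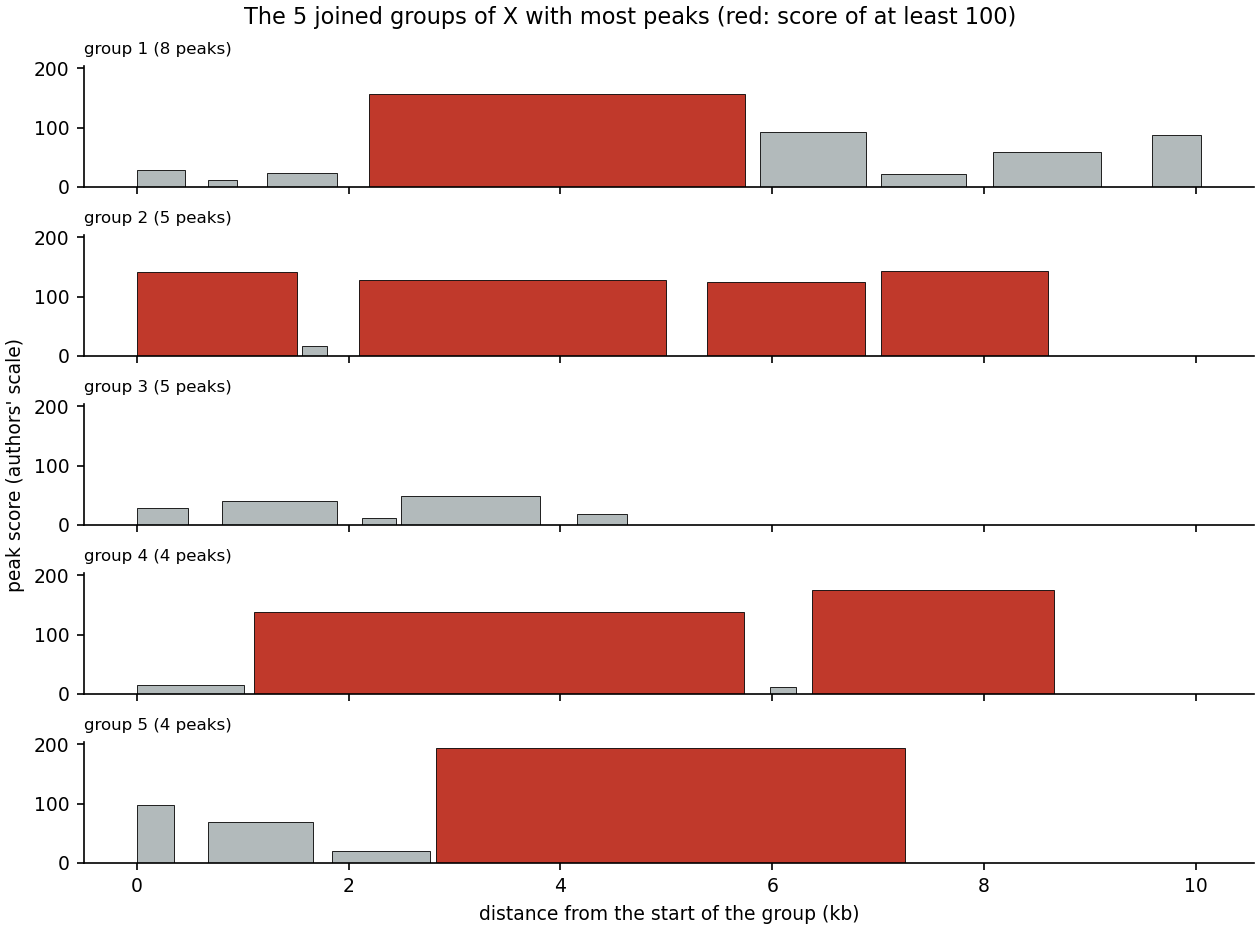
The 5 groups of X with most peaks (peaks joined where the gap is under 500 bp), drawn by distance from the start of the group in kb, with bar width for peak width and bar height for score (authors' scale). Strong peaks are red: group 1 has 1 of 8, group 2 has 4 of 5, and group 3 has none.

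A large part of X lay in long stretches without a called peak. Stretches of over 100 kb with no peak numbered 54, or 24.1 per 10 Mb, against 21.7 on 2L, 22.1 on 3L and 22.2 on 3R. They covered 9038 kb, 40.3% of the span, against 36.8%, 34.9% and 35.3%. Stretches of over 50 kb, however, were as frequent on X, at 52.6 per 10 Mb, as on the other arms, at 52.4 to 57.0. The 2 longest stood apart, with 560 kb at X:11915910–12475466 and 506 kb at X:20395827–20901799. The third was 311 kb at X:2746264–3057652, followed by 273 kb at X:15892091–16165203 and 235 kb at X:18030744–18265974. The longest were 441 kb on 2L, 414 kb on 3L and 319 kb on 3R. Left of the midpoint of X there were 25 such stretches with 3735 kb in all, and right of it 29 with 5303 kb.

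Peaks that border these empty stretches were not weaker than the rest of X. Peaks next to a stretch of over 100 kb had a median score of 34.8 and 21 of them were strong (20%). For the other 1066 the median was 29.5 and 17.9% were strong. On 2L, 3L and 3R the bordering peaks had the lower median score, at 57.0 against 70.6, 61.4 against 74.3 and 90.1 against 102. In width the bordering peaks of X had a median of 658 bp, against 709 bp for its other peaks. The longest empty stretch of X began at a peak scoring 20.2 and ended at a strong peak of 1610 bp scoring 221. The third began after a group of 4 peaks, whose last is 4434 bp wide with a score of 194. It ended at a peak of 3573 bp with a score of 133. The borders of the second scored 19.4 and 41.9, those of the fourth 43.9 and 23.6 and those of the fifth 22.5 and 14.6.

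A few peaks stood alone in such sequence. With more than 50 kb free on both sides there were 13 peaks on X, whose median score was 87.2 at a median of 1133 bp in width. Of these 5 were strong and 3 wide, where over all X peaks 18.1% were strong and 8.11% wide. With end peaks counted by their only neighbour, 42.9% of 14 such X peaks were strong and 21.4% wide. On the 3 arms pooled 36.4% of 66 were strong and 21.2% wide, so this was not particular to X. The peak at X:7374986–7376179 had 156 kb on its left and 127 kb on its right and scored 34.6. At X:17315599–17316003, with 118 and 135 kb around it, the score was 18.4. The peak at X:19927352–19930963, with 109 and 121 kb, was 3612 bp wide and scored 155. Isolated peaks of X were thus of every kind, from faint and narrow to strong and broad. The first peak of X, at X:4764–5961, scored 264 and was followed by 135 kb without a peak.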

How the data were processed

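Chromatin immunoprecipitation with sequencing measured H3K4me3. The 4 libraries were grouped by their titles; whether replicates were separate cultures is not stated in them. The authors deposited a peak list with a single score for every peak. Its build is FlyBase release 5, per the file headers. Tools named without roles, per the submitters' processing notes, are MACS2, BWA and CASAVA (1.7.0.3 and 1.7.0.2), with BDGP5 as genome. No source used here gives the calling threshold, the input used or any pooling. The narrowest peak was 200 bp and the smallest gap 51 bp.

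One start was 0, so starts were read as counted from 0, and width is end minus start. Arm lengths were not used: densities are per Mb from first to last peak. Shares have Clopper-Pearson and densities exact Poisson intervals. Depth is unknown and no test was run. Wide is over 2000 bp, strong a score of at least 100, joined a gap under 500 bp. Windows hold 25 peaks and bins 1 Mb. Regions named are the 10 highest and 10 widest, the first and last peak, the 5 longest empty stretches, largest groups and most isolated peaks, the extreme windows, runs and bins, and peaks with discordant width and score; those that lead are printed. The bordering peaks, the stretches without a strong or wide peak, the other runs and the stretches at a level of 64 were named after their values were seen. Peaks, limits and comparisons were all chosen with earlier results of these data known. The score classes and midpoint distances were added after seeing the data. Functions were tested on simulated data (planted groups, runs and empty stretches). Software was scipy 1.17.1, matplotlib 3.10.9, pandas 2.3.3 and numpy 2.4.6 under Python 3.11.15. Gene names and DNA sequence were not used here, since the gene table at hand is of another release. Alternatives were other limits, windows and bins, peaks above the list's median score, joined peaks, omission of the narrowest peaks and single arms.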

Additional observations from a re-analysis of the deposited data

Results flagged for a closer look

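The sequence XHet, heterochromatin of the X outside the assembled arm and not used above, held 8 peaks, listed here because no comparison above used them. Their scores ran from 12.98 to 326 with a median of 24.3, their widths from 397 to 3171 bp, and 3 of them were strong. The list gives no control value per library to set beside them.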

How the results depend on the processing

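Of 41 alternatives 16 left the value within its interval or within 1.5 times, 23 moved it and 2 turned a ratio to the other side of 1; the cause was not tested, except that another limit counts other peaks and taking peaks above the list's median selects on the score itself. The ratio of X to 2L, 3L and 3R was 0.890 for peak density, but 0.365 above the list's median score and 1.04 after joining peaks under 500 bp apart, so it gives no firm order. For median width it was 0.662, but 1.06 above that median, 0.593 after joining, and 0.719, 0.702 and 0.606 against 2L, 3L and 3R alone. For median score it was 0.371, and 0.432, 0.410 and 0.298 against these arms. Other limits gave 13.1% (over 1500 bp) and 3.76% (over 3000 bp) wide peaks, 27.6% (at least 50) and 9.14% (at least 150) strong peaks, and 6.84%, 33.7% and 44.3% short gaps (under 200, 1000 and 2000 bp), against 32.3% for midpoints. Groups of at least 3 numbered 6, 80 and 114 at these joining limits, and empty stretches 118 over 50 kb and 9 over 200 kb. The longest run above the X median was 16. The variance of bin counts was 4.98 times their mean, and 1.699 times with 2 Mb bins. With other class edges, added after seeing the data, the sparse score class of X held 0.516 and 0.505 of the fullest class above it, against 0.583. No paired analysis was possible because values of single libraries were not analysed here, and for that reason no replicate was left out in turn. Depth is unknown and weak regions below the calling threshold are missing, which limits all statements on weak peaks.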

Other observations

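X peaks in pairs, joined by a gap under 500 bp, were more often strong than single peaks, at 23.9% against 15.3%. Of the 140 pairs both peaks were strong in 23 (16.4%), 1 was strong in 21 (15.0%) and none was in 96 (68.6%). On 3R both were strong in 40.8% of 292 pairs, on 3L in 27.0% of 204 and on 2L in 18.5% of 211. Strong peaks made up 18.1% of all peaks on X, 33.0% on 2L, 37.9% on 3L and 50.3% on 3R, so the arms differed in this share to begin with. The higher score of an X pair was a median of 1.59 times the lower, and on 2L, 3L and 3R it was 1.60, 1.56 and 1.46 times. On X pairs with both peaks strong were thus about as frequent as pairs with 1, a description without a test.

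The first 1 Mb of X held 45 peaks with a median score of 29.0, a median width of 734 bp and 7 strong peaks. The last 1 Mb held 71 with a median score of 36.6, a median width of 557 bp and 13 strong peaks, beside a strong share of 18.1% over all of X. The last peak of X, at X:22422253–22422924, was 672 bp wide and scored 286. Like scores reached over some distance: adjacent X peaks had a rho of 0.268 in score and peaks 10 apart one of 0.130, against 0.172 and 0.011 on 2L, 0.294 and 0.143 on 3L and 0.226 and 0.116 on 3R, over 1161 to 1692 pairs that share their libraries.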
